A study of Mus musculus with 123 samples.

Results

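The granins, Vgf and PACAP were described here as 7 genes, Scg2, Scg3, Scg5, Chga, Chgb, Vgf and Adcyap1, taken by name from a table of 13842 genes. All 7 were present in the table. They were listed with earlier results of these data known, so the counts of members called are descriptions of this list. The tissue was cerebral cortex of male C57BL/6J mice, 11 to 12 weeks old, kept in alternating light and dark, and 62 animals had RNA values. Per the labels' protocols each RNA library gave more than 36 M mappable reads, with a median of 55 M, and the ATAC-seq libraries held 2.21 to 11.9 M reads in peaks (M, 1e6). Undisturbed control mice were taken at 0, 3, 6, 12 and 18 h after light onset (zeitgeber times ZT0 to ZT18), with 8 animals at ZT0, 3 at ZT3 and 5 at each of the others. The RNA value of ZT0 mouse T0N5 merges 2 libraries, 1 of each batch, and was fitted as batch 1. Sleep deprivation covered the first 6 h of light and was done by gentle handling, and 3 animals were taken at each of 12 times. T27 and T30 were 3 and 6 h into deprivation, T36 and T42 were 6 and 12 h after its end, and T48, T54, T60, T66, T72, T78, T192 and T198 were on later days. The numbers are hours from the light onset of the day before deprivation, so each group was set against the controls of its own time of day. No mouse carried a transgene or mutation in the labels, and the groups shared their housing. The labels call the T36 mice taken during deprivation, against the collection schedule, and the schedule was followed here.

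Granins are acidic secretory proteins that neurons and endocrine cells pack into dense-core vesicles together with neuropeptides, and several are themselves cut into peptides. Secretogranin II (Scg2) is the precursor of secretoneurin, and chromogranins A and B (Chga, Chgb) help to form the vesicles. Secretogranin III (Scg3) links chromogranin A to the vesicle membrane, and secretogranin V (Scg5) is the chaperone that prohormone convertase Pcsk2 needs to mature. Vgf is a neurotrophin-inducible precursor of several peptides, and Adcyap1 encodes the precursor of PACAP, a peptide that raises cAMP in its target cells. Transcription of several of these genes is known to respond to cAMP and neuronal activity.

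Scg2 and Vgf rose at the earliest time of enforced wakefulness, Adcyap1 and Chga were first called at 6 h, and higher levels lasted into recovery. Scg2, Adcyap1, Chga and Chgb had their largest change at T36, but no member's change differed between T30 and T36 by test. From T30 to T36 the deprived means went from 7.98 to 7.97 for Scg2 and from 8.49 to 8.46 for Chgb. Their control means went from 7.28 at ZT6 to 7.06 at ZT12, and from 8.34 to 8.21. The deprived means of Adcyap1 and Chga were higher at T36 than at T30 (4.81 against 4.55, and 7.31 against 7.18). RNA levels are the authors' deposited log2 values, and a gene is called where limma's adjusted p, Benjamini-Hochberg over all genes, lay below 0.05. At T27, 3 of 7 members were called higher (Scg2, Vgf and Chgb), beside 8.21% of all genes. At T30, 5 of 7 were called higher beside 16.0% of all genes. In the other direction 1 of 7, Scg5, was called lower beside 15.6%, so the lower count lay near the background. At T36, 5 of 7 were called higher (Scg2, Vgf, Adcyap1, Chga and Chgb) beside 7.46% of all genes. At T42, 2 of 7 were called higher (Scg2 and Chga) beside 0.614%. Leaving out 1 mouse moved the number of all genes higher from 1033 to 516 at T36 (without T36S1), and from 85 to 39, 49 and 26 at T42 (without T18N2, T42S2 and T42S6). Scg3 was called in no comparison with deprived mice. Since the tissue was homogenised, fewer cells of a type and less RNA per cell cannot be told apart in any of these values.

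The promoters of the members are shown because all 6 that had an entry in the RefSeq table (build GRCm38.p6) carried the core of the cAMP response element, the binding sequence of the factor CREB. Vgf was not among the 6. Each promoter window ran from 250 bases before to 50 after a gene start, and each motif was searched on both strands. The full element TGACGTCA stood in 2 of 6, Scg2 and Chgb, beside 1.79% of 32851 promoters in the table. Of the 10251 measured genes with a promoter there, 3.57% held it in any of their promoters. The bases before the start of these genes and of Chga are given on the gene's strand, with response element letters in capitals, and in Chgb also an Egr site. They lie at chr1:79440027-79440176 (minus strand) for Scg2, chr2:132781492-132781641 (plus strand) for Chgb, and chr12:102554791-102554940 (plus strand) for Chga.
Scg2: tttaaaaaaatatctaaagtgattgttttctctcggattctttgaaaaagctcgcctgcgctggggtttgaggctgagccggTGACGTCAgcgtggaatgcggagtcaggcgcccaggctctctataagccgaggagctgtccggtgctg
Chgb: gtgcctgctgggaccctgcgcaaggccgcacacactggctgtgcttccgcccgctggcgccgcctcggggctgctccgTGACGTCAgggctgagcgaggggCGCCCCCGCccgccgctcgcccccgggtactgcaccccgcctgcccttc
Chga: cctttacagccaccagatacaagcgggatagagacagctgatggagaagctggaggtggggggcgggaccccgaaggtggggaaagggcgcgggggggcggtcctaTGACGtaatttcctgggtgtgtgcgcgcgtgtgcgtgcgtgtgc
The element began 68 bases before the start in Scg2 and 72 bases before it in Chgb, so at nearly the same place. The core TGACG, which is part of the full element, stood in 6 of 6 members, beside 20.8% of all promoters and 34.8% of measured genes. It began 44 bases before the start in Chga and 30 in Scg3. Adcyap1 has 2 annotated starts, and the same site began 91 bases before the first and 242 before the second. Scg5 held 3 cores, beginning 175 bases before the start and 19 and 40 bases after it. The Egr site GCGNGGGCG stood in 1 of 6 (Chgb, beginning 49 bases before the start) beside 5.55% of all promoters and 12.6% of measured genes. The AP-1 site TGANTCA stood in 0 of 6 beside 7.81% and 6.11%, and the E-box CACGTG in 0 of 6 beside 7.15% and 11.5%. Scg3 and Scg5, whose promoters hold the core, were called higher in deprived mice at no time. As 6 of 6 members held the core, its presence cannot separate members that rose from the others. Any link of a motif to the changes was not tested.

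Scg2, the precursor of secretoneurin, lay at 7.38, 7.41 and 7.32 in the ZT3 controls and at 7.70, 7.99 and 7.67 in the T27 mice. The groups did not overlap, and T27S3 was the highest of the T27 mice. The difference was a log2 change of 0.41 (SE 0.09, limma adjusted p = 0.000846), a 1.33-fold rise. After 6 h of deprivation Scg2 lay at 7.87, 8.02 and 8.06, against 7.28, 7.36, 7.17, 7.24 and 7.34 at ZT6. Every deprived mouse stood above every control, with a log2 change of 0.71 (SE 0.08, adjusted p = 5.35e-09). At T36, 6 h after deprivation ended, it was still at 8.19, 7.85 and 7.85, while the ZT12 controls lay at 6.97, 7.05, 7.18, 7.12 and 6.97. This was its largest change, 1.89-fold (log2 change 0.92, SE 0.08, adjusted p = 1.7e-11), and T36S1 was the highest mouse of all 62 for this gene. At T42 the values of 7.56, 7.73 and 7.56 were above all ZT18 controls, which reached from 7.10 to 7.34, with a log2 change of 0.39 (SE 0.08, adjusted p = 0.00875). Without T42S4 the T42 call was lost (log2 change 0.33, adjusted p = 0.0687), and with only these 2 groups in the fit it was lost too (adjusted p = 0.0703).

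Vgf had the largest change of the members during deprivation. Its levels at T27 were 7.92, 8.08 and 8.09, against 7.43, 7.58 and 7.30 at ZT3. The lowest deprived mouse was above the highest control, with a log2 change of 0.59 (SE 0.11, adjusted p = 0.000149). At T30 it stood at 8.05, 8.12 and 8.19, and in the ZT6 controls at 7.09, 7.59, 7.00, 7.18 and 7.14. T6N3, the highest of the 5 controls, was below all deprived mice, and the rise was 1.90-fold (log2 change 0.93, SE 0.10, adjusted p = 1.89e-09). At T36 the values were 7.86, 7.67 and 7.70 against 6.87, 7.05, 7.15, 7.10 and 7.30 at ZT12, so the groups were again apart (log2 change 0.65, SE 0.10, adjusted p = 9.26e-06). At T42 Vgf lay at 7.79, 7.85 and 7.96 and the ZT18 controls at 7.62, 7.72, 7.50, 7.61 and 7.50. These groups did not overlap either, but the difference of 0.28 (SE 0.10) did not pass the test (adjusted p = 0.206).

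Adcyap1, the PACAP precursor, stood at T27 at 4.43, 4.69 and 4.48 against 4.36, 4.30 and 4.21 at ZT3, with no overlap. The difference of 0.24 (SE 0.12) did not pass the test (adjusted p = 0.199). At T30 the values were 4.56, 4.63 and 4.46, and the ZT6 controls lay at 4.25, 4.05, 4.14, 4.20 and 4.25. No control reached a deprived mouse, and the log2 change was 0.37 (SE 0.11, adjusted p = 0.00993). At T36 Adcyap1 reached 5.18, 4.63 and 4.62, against 3.71, 4.00, 4.20, 4.08 and 4.04 at ZT12. The rise was 1.75-fold (log2 change 0.81, SE 0.11, adjusted p = 1.57e-06), and T36S1 was again the highest of the 3. Without T36S1 the change was 0.62 and was called. At T42 the difference was 0.41 (SE 0.11, adjusted p = 0.0575), with 4.32, 4.43 and 4.37 against controls of at most 4.05.

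**Figure D1:**
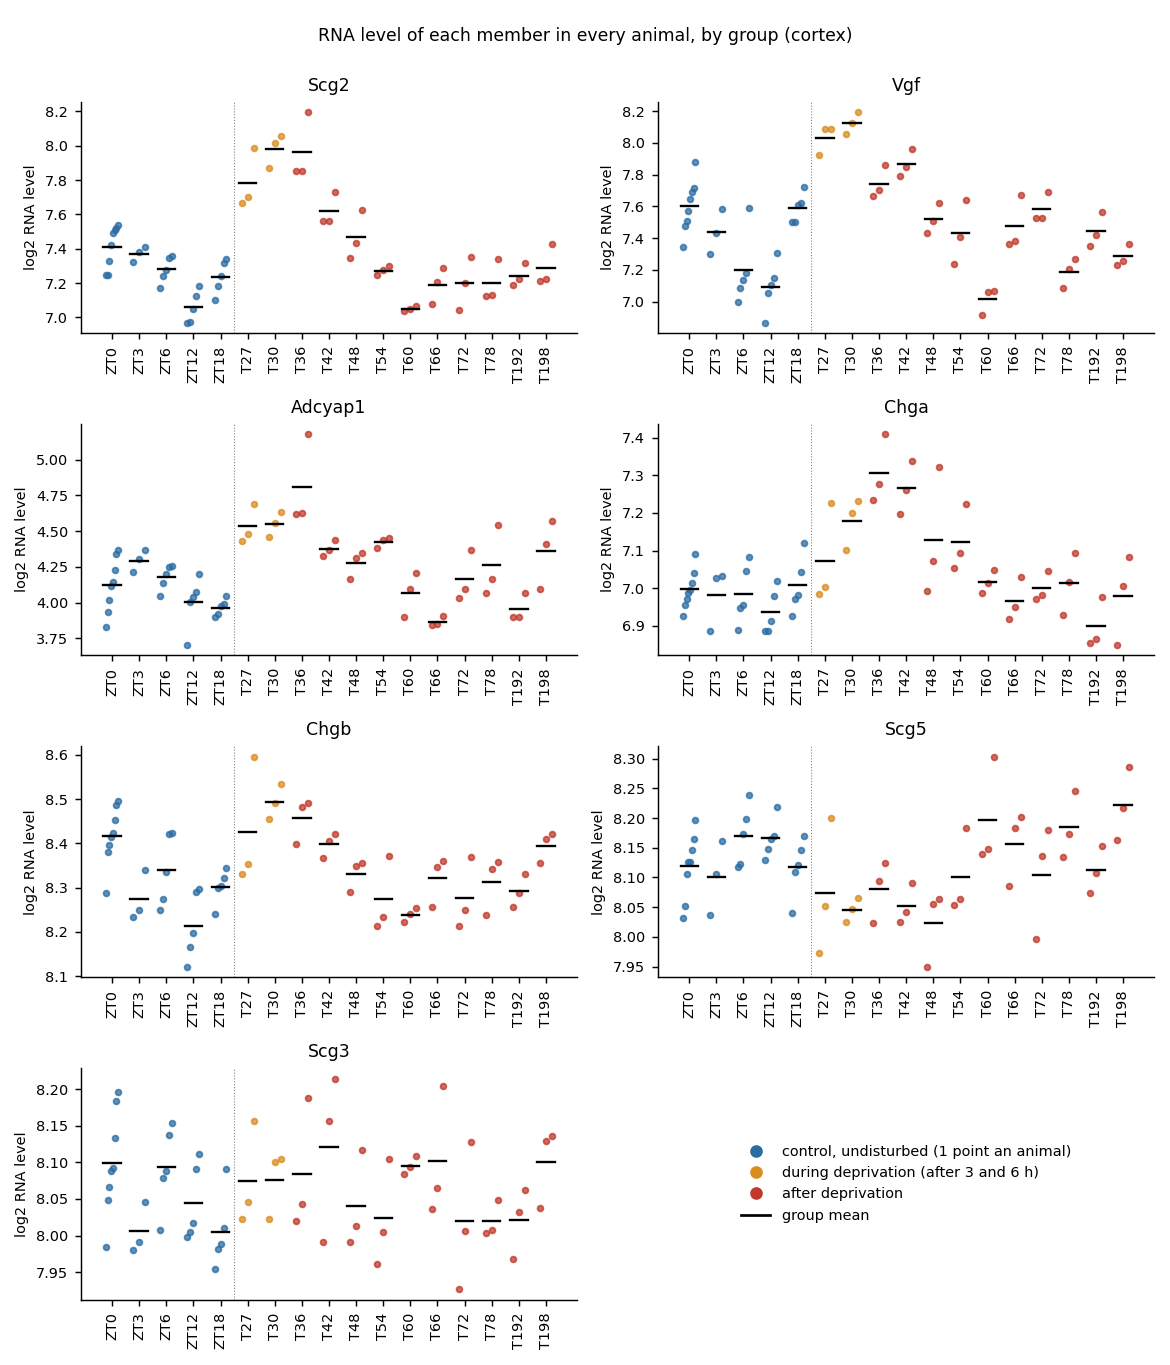
The log2 RNA level of each member in each of the 62 animals, by group, with the controls on the left and the deprived groups in order of time. Points are animals and black bars are group means; the Scg2, Vgf and Adcyap1 points at T30 and T36 lie above all control points of the same time of day, and Scg3 and Scg5 use a much narrower scale.

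The chromogranins had smaller changes. Chga stood at 7.10, 7.23 and 7.20 at T30 against 6.89, 7.04, 6.96, 6.95 and 7.08 at ZT6, a log2 change of 0.20 (SE 0.06, adjusted p = 0.00989). It rose further above its controls at T36, with 7.41, 7.28 and 7.24 against 6.89, 6.89, 7.02, 6.91 and 6.98 at ZT12 (log2 change 0.37, SE 0.06, adjusted p = 1.66e-05). At T42 it lay at 7.26, 7.20 and 7.34 and was called (log2 change 0.26, SE 0.06, adjusted p = 0.0199), and no ZT18 control passed 7.12. At none of these 3 times did the groups overlap. The T42 call of Chga was lost with controls of the same batch only (adjusted p = 0.126) and without T42S2, T42S6 or ZT18 mouse T18N2 (adjusted p = 0.0617, 0.167 and 0.0557).

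Chgb differed by a similar, small amount at T27 and T30. At T27 it stood at 8.35, 8.60 and 8.33 against 8.25, 8.34 and 8.23 at ZT3, so the groups overlapped, and the call (log2 change 0.15, SE 0.05, adjusted p = 0.0466) rested on T27S3. Without that mouse the change was 0.07 (adjusted p = 0.462), and leaving out T3N2 or T3N4 also ended it (adjusted p = 0.139 and 0.17); in all, 8 of 14 alternatives did. At T30 the values were 8.49, 8.53 and 8.46, above ZT6 controls of 8.27, 8.42, 8.33, 8.25 and 8.42 (log2 change 0.16, SE 0.05, adjusted p = 0.0134). At T36 they were 8.48, 8.49 and 8.40 against 8.12, 8.17, 8.29, 8.30 and 8.20 (log2 change 0.25, SE 0.05, adjusted p = 0.000474). The T36 rise of Chgb, Chga, Scg2, Vgf and Adcyap1 was called under every alternative run. The T30 calls of Chga, Chgb and Adcyap1 were lost without T30S3 (adjusted p = 0.0625, 0.073 and 0.0563), which left 2 of the 6 T30 calls, those of Scg2 and Vgf. That of Chgb was also lost with controls of the same batch only (adjusted p = 0.0507) and with only the compared groups in the fit (adjusted p = 0.0836).

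**Figure D2:**
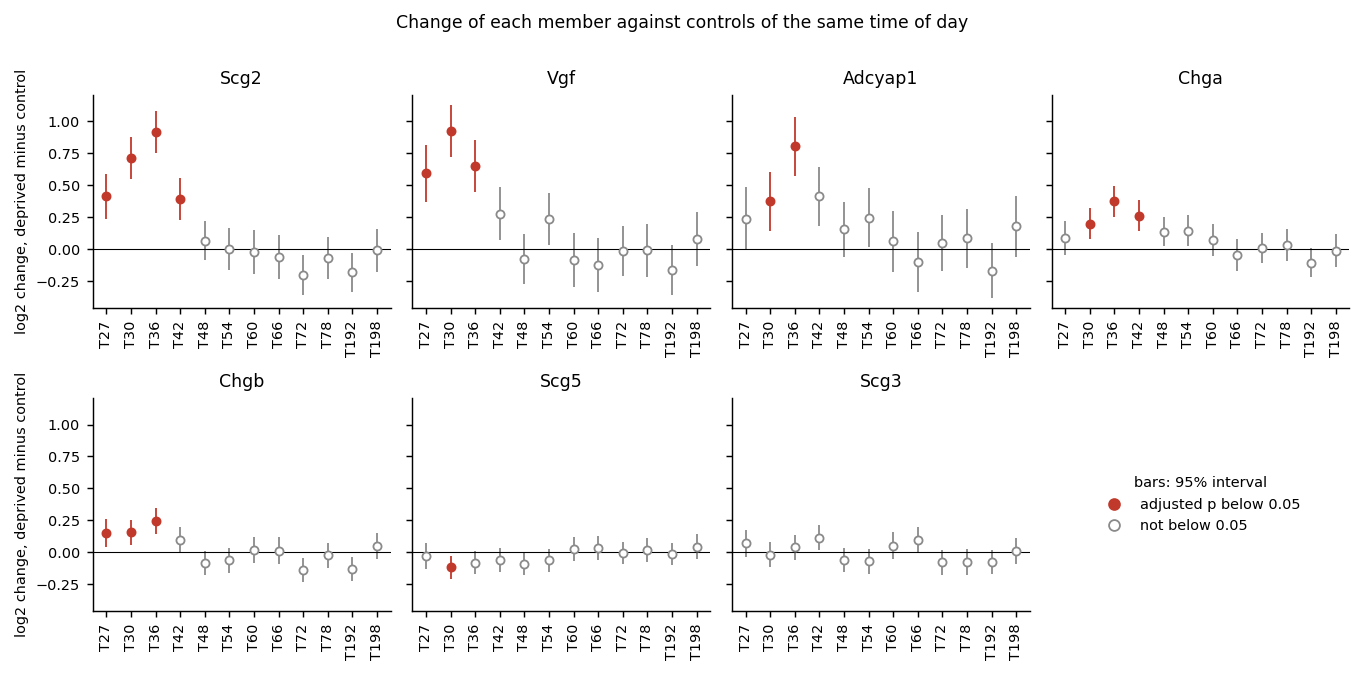
The log2 change of each member at each of 12 times against controls of the same time of day, with 95% intervals from the limma fit. Filled red points passed the adjusted p of 0.05; they lie at T27 to T42 for Scg2, at T27 to T36 for Vgf and Chgb, at T30 and T36 for Adcyap1, at T30 to T42 for Chga and at T30 alone for Scg5.

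Scg5 and Scg3, which act on the processing and sorting of the other precursors, were called higher in deprived mice at no time. Scg5, the chaperone of Pcsk2, lay at 8.05, 8.02 and 8.07 at T30 against 8.12, 8.24, 8.17, 8.12 and 8.20 at ZT6. All 3 deprived mice were below all 5 controls, and Scg5 fell by 0.12 on the log2 scale (SE 0.05, adjusted p = 0.0423). This call was lost when any of the 3 T30 mice or of ZT6 mice T6N3, T6N4 and J76N2 was left out, with adjusted p between 0.0655 and 0.129, and in all under 8 of 16 alternatives. Scg5 differed by -0.03 at T27, -0.08 at T36 and -0.06 at T42, none of which passed the test. Scg3 stood at 8.10, 8.10 and 8.02 at T30 and at 8.08, 8.09, 8.14, 8.01 and 8.15 at ZT6, so the groups lay on top of each other. Its log2 change there was -0.02, with a 95% interval from -0.12 to 0.08. Over the 17 group means Scg3 spanned 0.115 log2 units, and 1.91% of genes spanned less, where the median gene spanned 0.291. By the same measure Vgf spanned 1.11, Adcyap1 0.941 and Scg2 0.929, wider than 97.4% of genes or more.

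The change between neighbouring times was tested as a difference of effects, each against its own controls. From T27 to T30 no member passed, beside 0.00722% of genes, and 2 had an unadjusted p below 0.05, as did 1092 of 13842 genes. The Scg2 effect was larger at T30 by 0.30 (SE 0.12, adjusted p = 0.547) and that of Vgf by 0.33 (SE 0.15, adjusted p = 0.588). From T30 to T36 none passed, beside 11.4% of genes. Adcyap1 and Chga, 2 of 7, had an unadjusted p below 0.05, as did 3371 of 13842 genes. The difference was 0.43 for Adcyap1 (SE 0.16, adjusted p = 0.0645), 0.18 for Chga (SE 0.08, adjusted p = 0.179) and -0.28 for Vgf (SE 0.14, adjusted p = 0.219). Without ZT6 mouse T6N3, those of Adcyap1 and Vgf were called, and that of Adcyap1 also without T12N4, T36S2 or T36S4. From T36 to T42 the Scg2 effect fell by 0.53 (SE 0.11, adjusted p = 0.00375), the 1 of 7 members called lower, beside 2.08% of genes. The genes called in either direction went from 457 to 174 without T36S1 and to 236 without T42S2. Without T36S1, or with controls of the same batch only, this call was lost.

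After T42 no member differed from controls by the test. The shares of all genes called, in either direction, were 1.27% at T48, 0.00722% at T54, T60, T72 and T198, 0.0795% at T66, and 0% at T78 and T192. Leaving out 1 mouse moved these counts: from 1 to 643 genes at T54 without T54S4, from 1 to 118 at T198 without J76S2, between 70 and 189 around 176 at T48, and between 1 and 19 around 11 at T66. No member was called in any of these fits. The 56 changes of the 7 members at these 8 times lay between -0.20 and 0.25, and the lowest adjusted p was 0.262. In 9 of the 56 the unadjusted p was below 0.05. Scg5 at T48 (-0.09), Scg2 and Chgb at T72 (-0.20 and -0.14) and at T192 (-0.18 and -0.13) were the lower ones. The higher ones were Chga at T48 (0.14), and Chga (0.14), Vgf (0.23) and Adcyap1 (0.25) at T54. Of all 13842 genes, 1817 had an unadjusted p below 0.05 at T48, 1563 at T54, 1081 at T72 and 1039 at T192. Of the 7 members it was 2, 3, 2 and 2. Adcyap1 at T54 lay at 4.44, 4.38 and 4.45 against ZT6 controls of at most 4.25, and the difference did not pass (adjusted p = 0.411). The T60, T66, T192 and T198 mice were all of batch 2 of the 2 batches in the labels, and the controls held both batches except at ZT3.

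Over the undisturbed day, 3 of 7 members (42.9%) varied with time of day (Vgf, Scg2 and Chgb) beside 40.7% of genes, so the count lay near the background. Vgf was high at ZT0, with 7.34, 7.61 and 7.88 as the lowest, median and highest of 8 mice, and lowest at ZT12, where the 5 mice lay between 6.87 and 7.30. Its ZT0 and ZT12 mice did not overlap, and the range of its control means was 0.51 (adjusted p = 6.49e-07). The mean was 7.60 at ZT0 and 7.59 at ZT18, a gap smaller than the spread between mice, and without J70N2, T0N9 or T0N2 the mean at ZT18 was the highest. Scg2 ranged by 0.35 (adjusted p = 0.000165) and Chgb by 0.20 (adjusted p = 0.000471), both highest at ZT0 and lowest at ZT12. Adcyap1 was highest at ZT3 and lowest at ZT18, with a range of 0.33 that did not pass (adjusted p = 0.0638). Without T0N8 or T12N4 it did (adjusted p = 0.0331 and 0.0386), as with only the controls in the fit (0.0469) or only the ZT0 controls labelled T24 (0.0475). The ranges of Chga, Scg3 and Scg5 were 0.07, 0.09 and 0.06.

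Vgf and Adcyap1 lay in opposite order at ZT18, in the active night, and at ZT6, in the rest phase. Vgf was higher at ZT18, with 7.62, 7.72, 7.50, 7.61 and 7.50 against the ZT6 values given above, the 1 of 7 members called higher beside 15.4% of genes (log2 change 0.39, SE 0.09, adjusted p = 0.00044). That count of 1 of 7 lay near the background. The ZT6 mouse T6N3, at 7.59, was the 1 control that reached the ZT18 range. Adcyap1 lay at 3.90, 3.98, 4.05, 3.99 and 3.92 at ZT18, all at or below the lowest ZT6 mouse, with a difference of -0.21 (SE 0.10, adjusted p = 0.0905). With only the control groups compared in the fit, this difference was called. The Scg2 difference was -0.04, with a 95% interval from -0.18 to 0.10.

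Within groups, mice with more of a member also had more of another in some pairs of members. Other genes were not paired in this way, so whether this is particular to the members was not tested. Deviations from the group means were correlated over the 62 animals in all 21 pairs of members, and p-values are from permutation tests with 100000 resamples, two-sided, adjusted over the 21 pairs. In 12 pairs the adjusted p of Pearson's r was below 0.05, and all 12 were positive. The permutations treat the 62 deviations as free to swap, though 44 residual degrees of freedom remain once group means and batch are removed. These p-values, and those of batch 1 alone, therefore tend to be too small. Called pairs with a low r, such as Chgb with Adcyap1 (r = 0.299), may not hold. In the 40 animals of batch 1 alone 12 pairs were called, 11 of them shared; Chgb with Adcyap1 was lost (adjusted p = 0.0695) and Scg3 with Scg5 gained (adjusted p = 0.032). The closest pair was Scg2 and Chgb (r = 0.644, permutation p = 1e-05, adjusted p = 5.25e-05; rho = 0.628, permutation p = 1e-05), where 1e-05 is the smallest p these permutations can give. Without T27S3 and T36S1, the mice farthest out in Scg2, r was 0.621. Chga and Vgf followed (r = 0.611, rho = 0.703, both permutation p = 1e-05), with r of 0.629 without T27S3 and T48S3. Scg3, called in no comparison with deprived mice, went with Chgb (r = 0.563, rho = 0.546, permutation p = 1e-05 and 2e-05) but not with Vgf (r = -0.03, rho = -0.04, permutation p = 0.814 and 0.773). Scg3 with Adcyap1 and Chgb with Adcyap1 passed by r but not by rho (adjusted p of rho 0.0919 and 0.129), and r of the latter was 0.19 without T0N8 and T27S3. The deviations of 1 animal share its library, so a difference in library composition enters every pair; its part was not tested.

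Across the 17 group means, with the time of day and the deprivation as sources of spread, Scg2 went with Chgb (r = 0.879), Vgf (r = 0.853) and Adcyap1 (r = 0.824). Scg5 ran the other way, at r = -0.787 with Vgf and -0.686 with Scg2. Between animals of a group Scg5 and Scg2 deviated in the same direction (r = 0.323, rho = 0.296, permutation p = 0.0108 and 0.0199, which tend to be too small as said above). These points share normalisation and controls, and the values across group means are descriptions with no test.

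**Figure D3:**
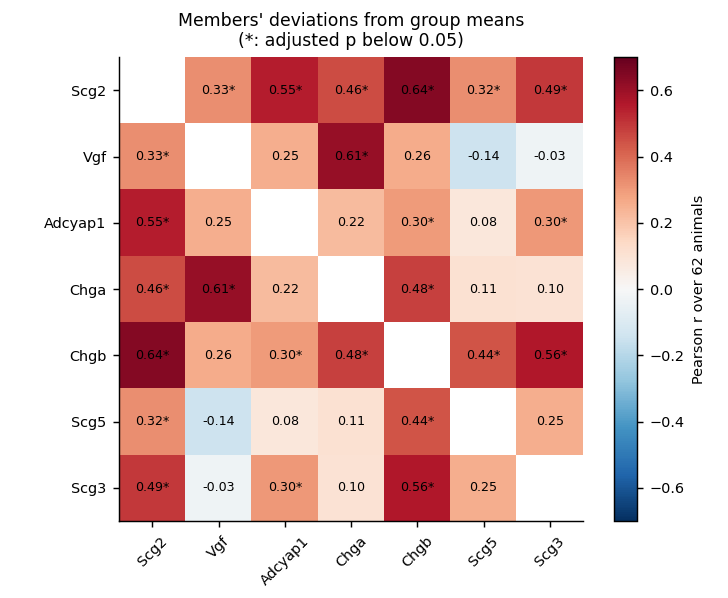
Pearson's r between the deviations of 7 members from their group means over 62 animals, from blue (negative) to red (positive), with a star for an adjusted permutation p below 0.05. The strongest cells are Scg2 with Chgb at 0.64 and Chga with Vgf at 0.61, and the Vgf cells with Scg3 and Scg5 are near or below 0.

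The genes whose 17 group means were most like those of each member were ranked by Pearson's r over all measured genes. For Vgf the closest was Bdnf (r = 0.968), the neurotrophin, then Dlgap4 (0.963) and Fam120a (0.956). For Scg2 they were Crh (0.944), the precursor of corticotropin-releasing hormone, Car12 (0.940) and Gpd1 (0.939). For Chga they were the transporter genes Slc6a17 (0.948) and Slc29a4 (0.905), and Nme1 (0.890). For Adcyap1 they were Gdpd5 (0.928), Mas1 (0.902) and Pmepa1 (0.888), and for Chgb the neurofilament gene Nefl (0.888), Inf2 (0.886) and Tpt1-ps3 (0.885). Scg5 was most like Pink1 (0.920), Adk (0.884) and Bend6 (0.883). For Scg3 the closest values were lower, with Atp5l at 0.769, Pnn at 0.755 and Rab6a at 0.754.

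Among the enzymes that cut and finish peptide precursors, Pcsk1 and Furin rose during deprivation and Pcsk2 fell. All 10 listed enzymes were measured, and 2 rose and 1 fell at both T27 and T30, 0 were called at T36, and 1 rose at T42. The background was the same 8.21%, 16.0%, 7.46% and 0.614% of genes higher. At T30 15.6% of all genes were lower, so the list's T30 counts lay near the background. The share of all genes lower at T27 is not given here, so the 1 enzyme that fell at T27 has no background beside it. Pcsk1, which cuts neuropeptide precursors within the vesicle, was higher by 0.88 at T27 (SE 0.12, adjusted p = 2.13e-06) and by 0.91 at T30 (SE 0.11, adjusted p = 3.75e-08). At T36 its difference of 0.30 did not pass (adjusted p = 0.0745). Furin, the convertase of the Golgi, was higher by 0.43 at T27 and by 0.51 at T30 (adjusted p = 0.00259 and 3.91e-05). Pcsk2, the partner of Scg5, fell by 0.18 at T27 and by 0.27 at T30 (adjusted p = 0.00807 and 4.13e-06), and at T42 it was higher by 0.17 (adjusted p = 0.0437). The median change of the 10 enzymes was 0.02 at T27 and -0.01 at T30, where that of all genes lay within 0.01 of 0.

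**Figure D4:**
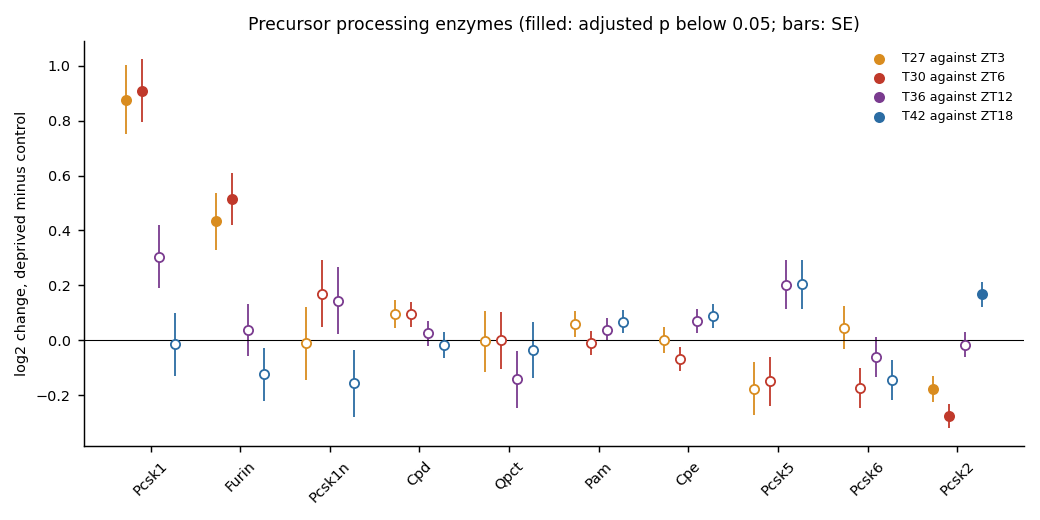
The log2 change, with its SE, of 10 enzymes of peptide precursor processing at T27, T30, T36 and T42 against controls of the same time of day; filled points passed the adjusted p of 0.05. Pcsk1 and Furin stand above 0 and Pcsk2 below it at T27 and T30, and the open points did not pass the test.

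Of the 17 genes for forming and releasing dense-core vesicles, 16 were measured. At T27, 2 rose and 0 fell, at T30 2 rose and 1 fell, at T36 1 rose, and at T42 none was called. The shares of all genes higher were 8.21%, 16.0%, 7.46% and 0.614%, so the list's counts lay near the background. Ptprn, a protein of the vesicle membrane, rose by 0.40 at T27, 0.46 at T30 and 0.37 at T36 (adjusted p = 0.000149, 1.31e-06 and 0.000141). Syt4 was higher at T27 by 0.20, the vesicle cytochrome Cyb561 was higher at T30 by 0.16, and the priming factor Cadps2 fell by 0.24 at T30. The list's median change lay between -0.05 and 0.01 at the 4 times.

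Of 4 receptor genes for PACAP and for a Vgf peptide, 3 were measured. At T27, T36 and T42 none was called, and at T30 1 rose, Vipr1 (log2 change 0.27, SE 0.09, adjusted p = 0.0245). Adcyap1r1, the receptor specific for PACAP, differed by 0.03 at T30 and by -0.15 at T36 (adjusted p = 0.706 and 0.0649).

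Some other neuropeptide precursors were higher too. Of 17 listed, 14 were measured, and 1 rose at T27, 5 at T30, 6 at T36 and 3 at T42, with none lower, beside 8.21%, 16.0%, 7.46% and 0.614% of all genes higher. At T36 the median change of the 14 was 0.23, where that of all genes was 0.00. Crh was higher by 0.58 at T27 and by 1.00 at T30, and the interneuron peptide gene Cort by 0.72 at T30 and 0.78 at T42. Pnoc, the nociceptin precursor, rose by 0.33 at T30, 0.35 at T36 and 0.37 at T42. Sst, the somatostatin gene, differed by 0.09 at T30 (adjusted p = 0.308).

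Some markers of cell types were called too. Of all genes, 8.21% were called higher at T27, 16.0% higher and 15.6% lower at T30, and 7.46% higher at T36. The share of all genes lower at T27 is not given here, so markers lower at T27 have no background beside them. At T27 all 3 choroid plexus markers were lower, with Ttr at -3.22, Kl at -0.41 and Enpp2 at -0.27, and their summed level, on the log2 scale, ran from 7.12 to 7.25 in T27 mice and from 7.37 to 8.57 at ZT3. Of 3 microglial markers, 1 was lower at T27 and 2 at T30 (P2ry12 at -0.31, Cx3cr1 at -0.19), with a summed level of 6.70 to 6.73 at T30 and 6.82 to 6.85 at ZT6. At T30 1 of the 3 choroid plexus markers was lower (Enpp2 at -0.18), with a summed level of 7.21 to 7.22 against 7.31 to 7.47 at ZT6. Of the 8 general neuronal markers, 1 (Nefl) was higher at T27, T30 and T36, and 2 (Syt1 and Stmn2) fell at T30, with summed levels of 12.72 to 12.76 at T30 and 12.74 to 12.86 at ZT6. Of 5 excitatory neuron markers, Neurod6 was higher by 0.44 at T27 and by 0.43 at T30, and Tbr1 lower, at -0.17, at T27, and none of 3 inhibitory neuron markers was called at T27 to T42. At T30 1 of 3 oligodendrocyte markers (Mog at -0.38) and 1 of 3 striatal ones (Drd1 at -0.32) were lower. At T36 and T42 no marker of choroid plexus, glia, endothelium, striatum, thalamus or blood was called. The 4 hypothalamic and 5 pituitary markers, tissues rich in granins, were not in the table. Whether any of these shifts takes part in the members' changes was not tested.

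Open chromatin at the members was read from ATAC-seq, which cuts accessible DNA with a transposase, in 59 animals of the same set, and 39 of the 130727 deposited peaks lay in or within 10 kb of a member. The peaks at the starts of Scg2, Scg3, Scg5, Chga and Chgb showed changes between -0.35 and 0.15 at T27, T30, T36 and T42, and the lowest adjusted p of these 20 tests was 0.559. No peak overlapped a start of Adcyap1, and for Vgf no start or strand was taken from the annotation. At T27 0 of 39 were called, beside 0.689% of all peaks, with 6 at an unadjusted p below 0.05, as were 14503 of 130727 peaks. At T36 and T42 also 0 of 39 were called, beside 0.618% and 0% of all peaks. An unadjusted p below 0.05 was found for 3 and 0 of them, and for 16119 and 5527 of all peaks. With time of day in controls 0 of 39 were called beside 1.39%, with 5 at an unadjusted p below 0.05, as were 19140 of all peaks. The counts of all peaks called moved with single mice left out. At T27 they fell from 901 to between 90 and 690, whichever mouse was left out. At T36 they lay between 153 and 925 around 808, and for time of day between 960 and 2199 around 1823.

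At T30 1 of 39 was called higher, beside 2.18% of all peaks, a share close to the background; all peaks higher fell from 2847 to 1282, 1010 and 978 without T6N4, T30S1 and T30S4. This peak lay past the downstream end of Scg2, at chr1:79432160-79432973 in mm10 coordinates, 1393 bases from the end of the gene, with its midpoint 7460 bases from the gene's start. Its signal, the authors' reads per peak scaled per library, was 6.09, 8.31 and 8.50 in the T30 mice and 1.84, 3.59, 4.01, 4.16 and 4.16 at ZT6. All 3 deprived mice were above all 5 controls, and the mean was 7.63 ± 1.34 (SD, n = 3) against 3.55 ± 0.98 (SD, n = 5). The log2 change was 1.05 (SE 0.26, limma adjusted p = 0.0102), and edgeR's quasi-likelihood test on the recovered reads gave 1.17 (adjusted p = 0.00318). Leaving out T6N2, T30S3 or T30S4 ended the call (adjusted p = 0.0736, 0.0517 and 0.0856). At T27 the same peak stood at 6.53, 7.92 and 5.14 against 3.80, 3.60 and 3.18, with no overlap, but its change of 0.79 did not pass (SE 0.28, adjusted p = 0.198). At T36 it was at 5.84, 2.85 and 3.73 against 3.32, 3.70, 3.24, 3.36 and 4.40, so the groups overlapped, while Scg2 RNA at that time was at its largest change.

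A peak within Scg5, at chr2:113821103-113821754, had a mean signal of 13.7 at T27 against 8.03 at ZT3. Its log2 change was 0.74 (SE 0.21, limma adjusted p = 0.0622), so limma did not call it. edgeR's test called it, the 1 of 39 that it called at T27. The share of all peaks that edgeR called at T27 is not given here, so this count has no background beside it. The other members' peaks at T30 ranged from -0.44 upward with a median over the 39 of 0.07.

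**Figure D5:**
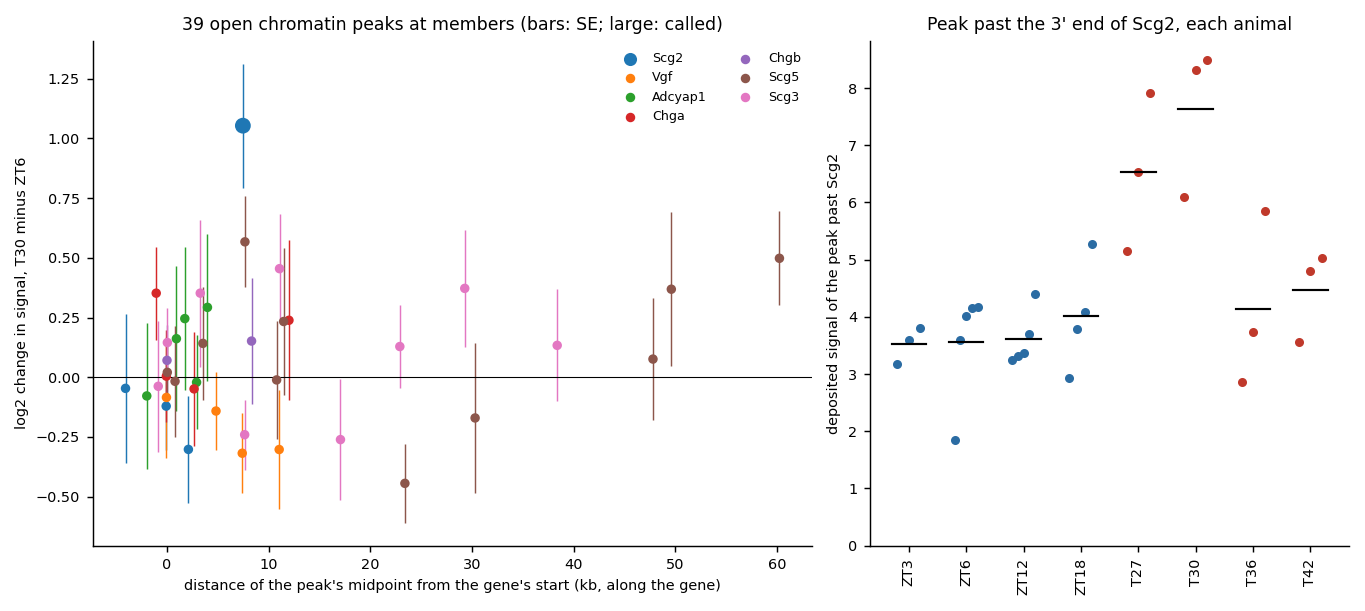
Left, the log2 change of 39 open chromatin peaks from ZT6 to T30, with its SE, against the distance of the peak's midpoint from the gene's start (for Vgf, from the lower end of its span); right, the signal of the peak past the end of Scg2 in each animal with group means. The Scg2 peak stands at 1.05, and its T27 and T30 points lie above the ZT3 and ZT6 points.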

How the data were processed

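RNA-seq and ATAC-seq were made from the same cortices. The RNA table holds the authors' deposited log2 levels, which the values show to be depth-normalised with an offset of 0.5 and adjusted for batch; the submitters' processing notes name kallisto 0.43.0 and sleuth 0.29.0, without their roles, and no source used here says whether levels are per length. The ATAC table holds the deposited signal, reads per peak scaled per library by the authors; the notes name Bowtie2, MACS2 2.1.1 and HTSeq 0.6.1, and mm10. In all 59 libraries 100% of the signal values were whole reads after rescaling, within 0.02 of a read; the column of 1 further library was not used. RNA values were fitted with limma 3.58.1 (R 4.3.3; a mean per group, a term for batch, trended variance), and ATAC signal as log2(signal + 0.5) in the same way, with Benjamini-Hochberg adjustment over all genes or peaks. edgeR 4.0.16 was run on the recovered reads. The fits and permutations were tested on simulated data. Replicate numbers did not pair the animals: over 37 same-numbered pairs the median correlation was -0.02. Text names the 7 members, the 3 genes most like each, and called genes of 4 lists. Members and lists were chosen with earlier results of these data known. The deposited log2 levels carry no read counts, so no counting interval is given for a member.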

Additional observations from a re-analysis of the deposited data

Results flagged for a closer look

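The deprivation effect on Scg2 differed between T36 and T42 by a direct test of the 2 effects: it was smaller at T42 by a log2 difference of -0.53 (SE 0.11, limma adjusted p = 0.00375). Of 28 groups of members' control values, 0 held a mouse whose gap to its nearest neighbour passed Dixon's 95% criterion; for Vgf at ZT6 the gap between T6N3 and its nearest neighbour was 0.695 of the range, short of it.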

How the results depend on the processing

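Of 280 alternative values of the 19 called changes at T27 to T42 and called daily ranges (for the ranges, with no mouse left out), 29 no longer passed the threshold and 0 changed direction. The counts of members below stand without the share of all genes called in the same fit. That share also moves between fits, as given above for left-out mice, so these counts have no background beside them. With controls of the same batch only, 1 member was called at T42 (Scg2) and 0 in the T42 to T36 difference of effects. With only the compared groups in the fit, 0 were called at T42 and 2 between ZT18 and ZT6 (Vgf and Adcyap1). With the replicate block, 1 was called at T42 and 2 in the T42 to T36 difference (Scg2 and Vgf); as the numbers do not pair the animals, this is given only here. edgeR called 1 of 39 peaks at T27, with no share of all peaks beside it. Leaving out 1 mouse at a time, the members called ranged from 2 to 3 at T27, 3 to 4 for time of day, 2 to 6 at T30, 1 to 2 at T42, 0 to 2 from T30 to T36 and 0 to 1 from T36 to T42, and member peaks at T30 from 0 to 1. Among changes not called, Scg5 at T27 ranged from -0.0889 to 0.0242, Scg3 at T30 from -0.0357 to 0.00879 and Scg3 at T36 from -0.0145 to 0.0695, so their sign depended on the mice used; the cause was not tested. Groups of 3 limit the comparisons, and peaks with few reads limit the chromatin tests.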
